A study of Mus musculus with 10 samples.

Results

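The genes described here are 8 genes of cholesterol homeostasis, Hmgcs1, Idi1, Fdps, Fdft1, Sqle, Cyp51, Dhcr7 and Insig1, chosen by their gene symbol in the array's platform annotation. Of the 8, 5 had a probe under their symbol, out of 11130 symbols on the array. Hmgcs1, Fdps and Insig1 had none, and Fdft1 and Cyp51 had a probe whose cells were blank on every array. Sqle had 1 value, and only Idi1 and Dhcr7 had enough values to be tested, out of 4299 symbols that did. The set carries the name of cholesterol synthesis and LDL uptake, but none of the 8 encodes an uptake receptor.

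RNA came from the aortic arch of ApoE-/-,MyD88-/- mice, called double-null here, and of ApoE-/- mice, called apoE-null here. Both genotypes therefore lack apolipoprotein E, the lipoprotein ligand whose loss raises plasma cholesterol and gives mice atherosclerosis, and they differ in MyD88, the adaptor of interleukin-1 and most Toll-like receptors. The labels of 8 of 10 arrays state that the mice ate a high fat diet for 8 weeks, and the remaining arrays hold mice that those labels also name. The labels used here give no ages, strain background or construction of the alleles. Each of 5 mouse pairs, with 1 mouse of each genotype, was hybridised on 2 two-colour arrays with the dyes exchanged, so a replicate is a mouse pair and n is at most 5. Both mice of pair 1 were female and both of pairs 2, 3 and 4 male. Pair 5 was of unlike sex, its double-null mouse being male and its apoE-null mouse female. All values are log2 ratios of double-null over apoE-null signal, so a value below 0 means less transcript in the double-null mouse.

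Cells build cholesterol from acetyl-CoA through mevalonate and isoprenoid units to squalene, which is cyclised and then trimmed to cholesterol in the endoplasmic reticulum. The transcription factor SREBP-2 drives these genes when membrane cholesterol is low, and it works together with the factors NF-Y and Sp1 on their promoters. When sterol is plentiful, INSIG proteins hold the SREBP escort SCAP in the endoplasmic reticulum and the pathway is quiet. In a plaque, macrophages take up lipoprotein cholesterol by scavenger routes, and oxysterols made from it turn on LXR target genes for cholesterol export. The related factor SREBP-1c drives fatty acid synthesis, for which adipose tissue and liver are known.

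The proximal promoters of both tested members, and of Sc5d and Fasn, the sterol and fatty acid synthesis genes with the widest spread between mouse pairs, are shown for their NF-Y boxes, since NF-Y is a known partner of SREBPs on such promoters. The sequences are the 120 bases before the annotated start in RefSeq, assembly GRCm38.p6, and the capitals mark CCAAT boxes on either strand. Dhcr7 has 3 starts in the table, and the window shown is the one that holds such boxes.
Idi1 (chr13:8885486-8885605, plus strand): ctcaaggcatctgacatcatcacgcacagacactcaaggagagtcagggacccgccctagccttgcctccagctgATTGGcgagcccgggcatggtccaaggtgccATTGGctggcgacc
Dhcr7 (chr7:143830094-143830213, plus strand): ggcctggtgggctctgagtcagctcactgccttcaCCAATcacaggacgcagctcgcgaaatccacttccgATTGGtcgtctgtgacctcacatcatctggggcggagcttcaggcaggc
Sc5d (chr9:42264301-42264420, minus strand): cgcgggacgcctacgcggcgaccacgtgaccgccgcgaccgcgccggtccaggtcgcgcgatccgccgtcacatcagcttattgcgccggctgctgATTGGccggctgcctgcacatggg
Fasn (chr11:120824548-120824667, minus strand): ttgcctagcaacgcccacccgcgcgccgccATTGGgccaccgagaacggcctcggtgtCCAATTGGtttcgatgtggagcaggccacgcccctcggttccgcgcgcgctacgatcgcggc
Idi1 and Dhcr7 each hold 2 boxes in these windows, Sc5d holds 1, and Fasn holds 3, of which 2 overlap on opposite strands.

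Promoter windows of 250 bases before to 50 bases after the start were in the table for 5 of the 8 members, namely Hmgcs1, Idi1, Cyp51, Dhcr7 and Insig1. The letters CCAAT, read on both strands, occurred at 1 start or more of all 5, against 41.1% of 27025 genes in the table. The Sp1 box GGGCGG also occurred in all 5, against 38.2% of genes. The sterol regulatory element TCACNCCAC and its shorter core CACCCCAC, which overlap, occurred in Hmgcs1 alone among the 5, against 1.44% and 3.30% of genes. Among the other mevalonate and sterol synthesis enzymes 12 of 14 genes held CCAAT, and among genes of fatty acid synthesis 8 of 11 did. So did 7 of 9 genes of LDL uptake and cholesterol transport and 3 of 8 regulators of the SREBP pathway. In these lists, in the same order, GGGCGG was held by 12 of 14, 5 of 11, 8 of 9 and 6 of 8 genes. A match to these letters is a description of the window and not of binding. Only these exact letters were searched, so a window without a match cannot be said to lack a site.

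The array held 13872 probes, of which 4581 to 7057 had a value on any one array. The 4866 probes with at least 3 pair values, each from both partner arrays, were tested. Of all probes, 41.9% were blank on every array, as those of Fdft1 and Cyp51 were. No source used here gives the reason for a blank, and intensities were not analysed here, so neither absence nor low level can be read from it. The deposited values are ratios and give no level, so genes cannot be ranked by abundance. Myd88, the disrupted gene, was below 0 on 10 of 10 arrays, between -1.20 and -0.46, with a mean of -0.90 ± 0.22 (SD, n = 5 pairs, limma adjusted p = 0.0248). The call was lost when any single pair was left out, with adjusted p between 0.0528 and 0.119. No source used here places the Myd88 probe relative to the disrupted part of the gene. Of 10 smooth muscle markers, 8 had a value. Acta2, Myh11 and Tagln had values on all 10 arrays, as did 26.0% of all probes, and Des had a probe that was blank on every array.

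Of the members that could be tested, Idi1 had pair values on both sides of 0 and Dhcr7 was below 0 in each of its 4 pairs. The samples were whole tissue, in which fewer cells of a type and less RNA per cell cannot be told apart. Neither Idi1 nor Dhcr7 passed the test (limma, two-sided, Benjamini-Hochberg adjustment over 4866 probes, threshold 0.05), where 0.781% of all probes did. The median of their means was -0.18, beside -0.04 for all probes tested, and was -0.10 without pair 4. Their pair medians were 0.05, 0.05, -0.28, -0.52 and -0.05 in pairs 1 to 5. With 2 of 8 genes tested, these figures describe Idi1 and Dhcr7 and not the pathway.

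Idi1, which isomerises isopentenyl diphosphate to dimethylallyl diphosphate and so feeds the growing isoprenoid chain, had a spread between pairs larger than its mean difference between the genotypes. With double-null RNA in channel 1, Idi1 read 0.08, -0.01, -0.18, -0.59 and 0.43 in pairs 1 to 5. With the dyes exchanged, Idi1 read 0.97, 0.11, -0.67, -0.92 and -0.07. Both arrays of pairs 3 and 4 were below 0 and both arrays of pair 1 above, whereas in pairs 2 and 5 the partner arrays fell on opposite sides of 0. The pair means were 0.52, 0.05, -0.43, -0.76 and 0.18, and 6 of the 10 arrays were below 0. The mean was -0.09 ± 0.51 (SD, n = 5 pairs), with a 95% confidence interval of -0.52 to 0.34 and a limma adjusted p of 0.867. The interval leaves room for a change in either direction, and an exact two-sided sign-flip permutation test over pairs gave p = 0.75, where 5 pairs can reach 0.0625 at best. Without pair 4, the pair with the lowest ratio, the mean was 0.08.

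The spread of Idi1 between pairs was above that of most probes. Its SD of 0.51 ranked 577 among 3612 probes with values in all pairs, whose median SD was 0.30. Pair 1 was the highest pair and the male pairs averaged -0.38, and the 1 female pair has no spread of its own, so no test by sex is given. The dye effect, the second orientation minus the first divided by 2, was -0.03 for Idi1 and did not pass (limma adjusted p = 0.897), where 4.75% of all probes had one. The partner arrays of pair 1 nevertheless differed by 0.89, so the height of that pair rests mainly on 1 array.

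Dhcr7, the reductase that makes cholesterol from 7-dehydrocholesterol in the last step, was the more even of the measured members. With double-null RNA in channel 1, Dhcr7 read -0.21, 0.22, -0.16, -0.13 and -0.03 in pairs 1 to 5. With the dyes exchanged, Dhcr7 read -0.62, -0.12, -0.43 and -0.53 in pairs 1, 3, 4 and 5, and was blank in pair 2. It was below 0 on 8 of 9 arrays, and the 1 array above 0 was that of pair 2, whose partner was blank, so that this pair is not in the mean. The 4 pair means were -0.42, -0.14, -0.28 and -0.28, all below 0, as were those of 11.0% of the 838 probes with 4 pair values. The mean was -0.28 ± 0.11 (SD, n = 4 pairs), or 1.21-fold less transcript in double-null aorta, with a 95% confidence interval of -0.57 to 0.01. It did not pass (limma adjusted p = 0.511, unadjusted p = 0.0583). The exact two-sided sign-flip permutation test gave p = 0.125, the smallest that 4 pairs allow.

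The mean of Dhcr7 was -0.06 over the 5 arrays that had double-null RNA in channel 1, and -0.42 over the 4 with values after the dyes were exchanged. Over the same 4 pairs, the first orientation averaged -0.13. The dye effect of Dhcr7, -0.15, did not pass (limma adjusted p = 0.366). When the single array of pair 2 was let in, the mean was -0.18.

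Sqle, the squalene monooxygenase and a rate-limiting enzyme of the sterol branch, had a value on 1 of 10 arrays. That value was -0.14, in pair 4 with double-null RNA in channel 1. No comparison can be made from it.

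**Figure D1:**
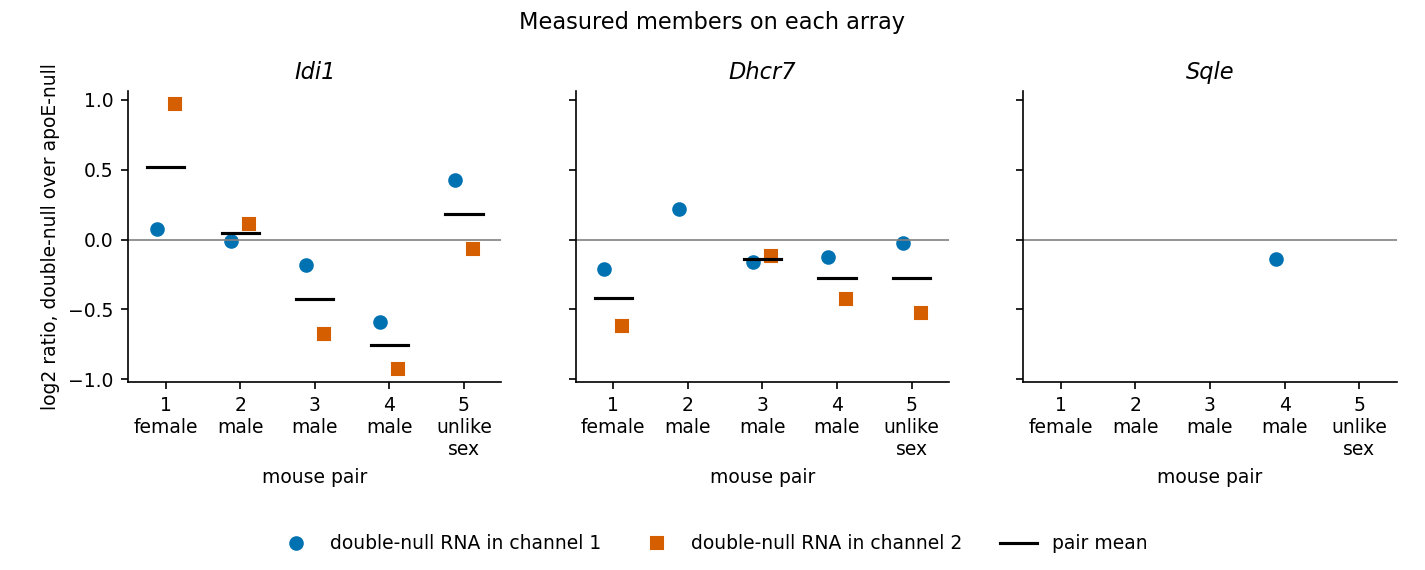
The log2 ratio of double-null over apoE-null signal on every array for Idi1, Dhcr7 and Sqle, with mouse pairs 1 to 5 along the x axis, circles and squares for the dye orientations and bars for pair means where both arrays had a value. Idi1 pair means run between -0.76 and 0.52, the 4 Dhcr7 pair means lie between -0.42 and -0.14, and Sqle has a single point at -0.14.

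Of the other genes of the mevalonate and sterol pathway that were tested, none passed, and their means lay on both sides of 0. Of 16 such genes, 10 had a probe, 7 had a value and 6 were tested, with a median of 0.08 over means between -0.13 and 0.39. Their pair medians were 0.27, 0.22, -0.14, -0.04 and 0.22 in pairs 1 to 5.

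In the early, mevalonate part of the pathway, Pmvk, which adds the second phosphate to mevalonate, had the largest mean. Its probes gave 0.39 ± 0.52 and 0.39 ± 0.51 (SD, n = 5 pairs, limma adjusted p = 0.522 and 0.518). The first Pmvk probe read 1.17, 0.41, -0.17, -0.0014 and 0.54 in pairs 1 to 5 and the second read 1.11, 0.57, -0.24, 0.10 and 0.39, so both put pair 1 highest and pair 3 lowest. Without pair 1 the mean of the second probe was 0.21. Mvd, which makes isopentenyl diphosphate, averaged 0.01 ± 0.31 (SD, n = 3 pairs, adjusted p = 0.990). Mvk had a value on 1 array, and Ggps1, which draws farnesyl diphosphate into geranylgeranyl diphosphate, was blank throughout.

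In the sterol part, Erg28, the endoplasmic reticulum scaffold for the C-4 demethylation enzymes known from yeast, was above 0 in 5 of 5 pairs and Ebp, the sterol isomerase, below 0 in 5 of 5. Erg28 read 0.21, 0.69, 0.10, 0.09 and 0.03 in pairs 1 to 5, a mean of 0.22 ± 0.27 (SD, n = 5 pairs, limma adjusted p = 0.573). Ebp read -0.15, -0.06, -0.08, -0.04 and -0.33, a mean of -0.13 ± 0.12 (SD, n = 5 pairs, adjusted p = 0.665). Neither passed, and of 3612 probes with 5 pair values 4.29% were above 0 in every pair and 6.56% below. Without pair 2 the Erg28 mean was 0.11, and without pair 5 the Ebp mean was -0.08. Msmo1, the C-4 methylsterol oxidase, averaged 0.07 ± 0.30 (SD, n = 4 pairs, adjusted p = 0.867).

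Sc5d, the desaturase that makes 7-dehydrocholesterol, the substrate of Dhcr7, had the widest spread of the sterol genes. It read 1.17, -0.20, -0.95, -0.06 and 0.52 in pairs 1 to 5, a mean of 0.10 ± 0.80 (SD, n = 5 pairs, limma adjusted p = 0.900). Its SD ranked 148 among 3612 probes. Without pair 1 the Sc5d mean was -0.17, and without pair 3 it was 0.36. The pair means of the consecutive enzymes Sc5d and Dhcr7 thus lay on opposite sides of 0 in pairs 1 and 5 and on the same side in pairs 3 and 4. In pair 4 the partner arrays of Sc5d read -0.52 and 0.41, so its side of 0 there is not settled.

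**Figure D2:**
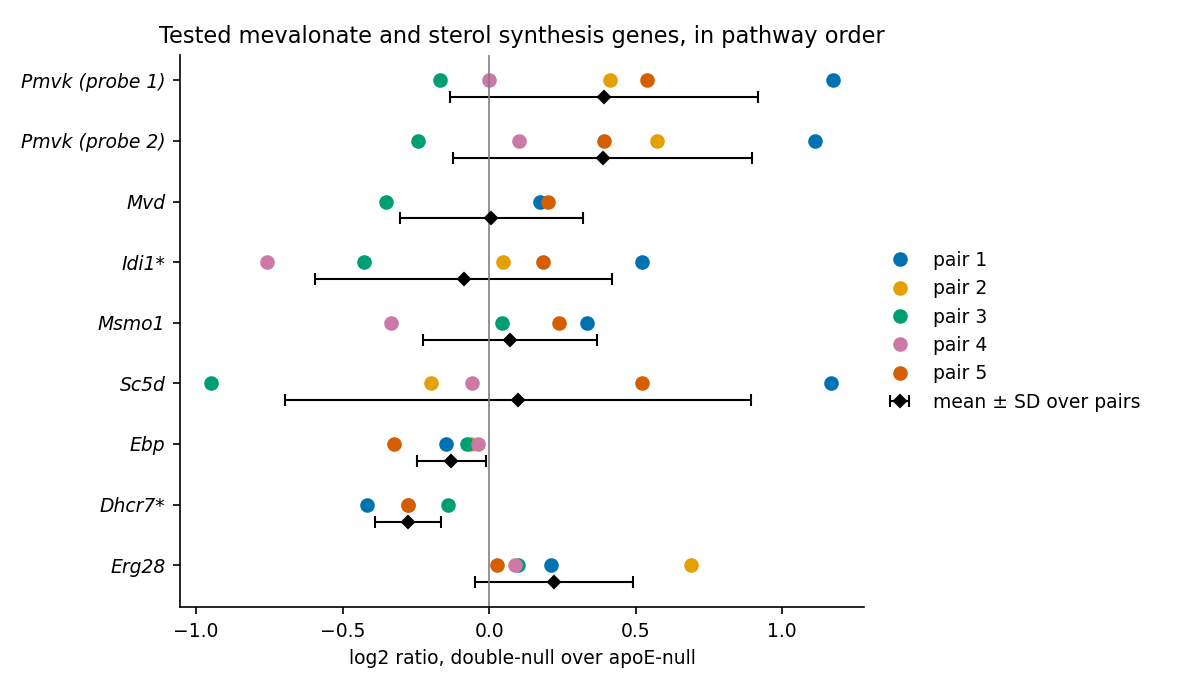
The log2 ratio of double-null over apoE-null signal on the x axis for each tested mevalonate and sterol synthesis gene. Each has a coloured point per mouse pair, a diamond and bar for the mean ± SD over pairs, and an asterisk for Idi1 and Dhcr7. The rows do not follow the pathway steps throughout. Ebp stands between the consecutive enzymes Sc5d and Dhcr7, and Erg28, of C-4 demethylation, stands last. The pair values of Pmvk, Idi1, Msmo1, Mvd and Sc5d straddle 0, those of Ebp and Dhcr7 lie below it and those of Erg28 above it, and the Dhcr7 points of pairs 4 and 5 coincide at -0.28.

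Among 10 regulators of the SREBP pathway, 3 had a probe with values and none passed. Srebf1, the gene for SREBP-1, read 0.87, 0.23, -1.06, -0.44 and 0.17 in pairs 1 to 5, a mean of -0.04 ± 0.73 (SD, n = 5 pairs, limma adjusted p = 0.952). Mbtps1, the site-1 protease that begins the release of SREBPs from the membrane, averaged -0.13 ± 0.22 (SD, n = 5 pairs, adjusted p = 0.707). Ufd1, a partner of the complex that extracts ubiquitinated proteins from the endoplasmic reticulum for degradation, averaged 0.02 ± 0.32 (SD, n = 5 pairs, adjusted p = 0.956). Srebf2 and Scap had no probe under their symbols, nor had Insig2.

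Genes of LDL uptake and intracellular cholesterol transport did not pass. Of 15 genes, 8 had a probe, 6 had a value and 5 were tested, all 5 with means below 0, as were 58.7% of all probes tested, and with a median of -0.26. Lipa, the lysosomal acid lipase that frees cholesterol from LDL esters, read -1.44, -0.24, -0.35, -0.56 and 0.11 in pairs 1 to 5. Its mean was -0.49 ± 0.58 (SD, n = 5 pairs, limma adjusted p = 0.483), and without pair 1 it was -0.26. Lrp1, an endocytic receptor for lipoprotein remnants, averaged -0.43 ± 0.39 (SD, n = 3 pairs, adjusted p = 0.512). Stard3, a late endosomal sterol carrier, averaged -0.26 ± 0.28 (adjusted p = 0.528), and Npc2, which hands cholesterol to Npc1 in the lysosome, averaged -0.19 ± 0.32 (adjusted p = 0.641), each SD with n = 5 pairs.

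The macrophage list moved with these values in part of the pairs. Both were lowest in pair 1 and above 0 in pair 5 alone, while pairs 2, 3 and 4 were ordered differently. Its medians were -1.17, -0.32, -0.68, -0.44 and 0.31 in pairs 1 to 5, beside -0.58, -0.43, -0.31, -0.12 and 0.14 for the uptake and transport genes. Of 17 macrophage markers tested, 1 fell and 16 had means below 0, with a median of -0.42, where 9 of 4866 probes fell and 58.7% had means below 0. The marker that fell was Cd5l, a protein secreted by tissue macrophages (-2.02 ± 0.62, SD, n = 5 pairs, limma adjusted p = 0.0122). Its call was lost without pair 2, 3 or 4 (adjusted p = 0.115, 0.0543 and 0.0733). The part of these markers in the uptake and transport values was not tested.

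None of the tested genes in the list of LXR targets and of cholesterol export and esterification passed either. This list left out Cd5l, which fell and was counted above as a macrophage marker. Of 13 genes, 9 had a probe and 5 were tested, all 5 with means below 0, as were 58.7% of all probes tested. Their median was -0.36, with pair medians of -0.52, -0.28, -0.40, -0.28 and -0.0032 in pairs 1 to 5. Both the median of -0.36 and that of pair 1 are the values of Apoe, which had 3 pair values and is disrupted in both genotypes. Pltp, a phospholipid transfer protein, averaged -0.48 ± 0.49 (SD, n = 5 pairs, limma adjusted p = 0.446), and Abcg1, a sterol exporter of macrophages, averaged -0.38 ± 0.56 (SD, n = 5 pairs, adjusted p = 0.550). Apoe, disrupted in both genotypes, averaged -0.36 ± 0.15 (SD, n = 3 pairs, adjusted p = 0.511), and Apoc1, its genomic neighbour, averaged -0.24 ± 0.60 (SD, n = 4 pairs, adjusted p = 0.705). Nr1h3, the gene for LXR alpha, averaged -0.05 ± 0.25 (SD, n = 5 pairs, adjusted p = 0.884). Its dye effect passed, at -0.35 (adjusted p = 0.0404). Without pair 1 the means were -0.27 for Pltp and -0.19 for Abcg1. Apoe was -0.14 where single arrays were allowed to stand for a pair and -0.16 in the array-level fit. Abcg1 read -1.11, -0.41, -0.46, -0.36 and 0.46 in pairs 1 to 5, beside the macrophage medians given above, whose part was not tested. Abca1, the main exporter, was blank on all arrays.

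The branches that leave the pathway before sterols had means between -0.15 and 0.11. Of 11 genes of prenylation, ubiquinone and dolichol synthesis, 6 had a probe and 4 were tested, with a median of -0.03 and none past the threshold. Icmt, which methylates prenylated proteins, averaged -0.15 ± 0.17 (SD, n = 5 pairs, limma adjusted p = 0.659), and Fnta, the shared subunit of the farnesyl and type I geranylgeranyl transferases, averaged 0.11 ± 0.24 (SD, n = 5 pairs, adjusted p = 0.737). Coq2, of ubiquinone synthesis, averaged -0.10 ± 0.19, and Rabggtb, of Rab prenylation, averaged 0.03 ± 0.25 (each SD, n = 4 pairs). Of 7 genes of bile acid and steroid hormone synthesis, all had a probe, 2 had a value and none could be tested.

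Fatty acid synthesis genes, the SREBP-1c arm, had a wider spread between mouse pairs than Idi1 and Dhcr7, with Fads1 as the exception among 7. Of 14 genes, 9 had a value and 7 were tested, with a median of 0.52, pair medians of 2.29, 0.03, -0.77, 0.19 and 0.90, and none past the threshold. Fasn, fatty acid synthase, read 3.36, -0.39, -2.13, 0.25 and 2.23 in pairs 1 to 5, a mean of 0.66 ± 2.17 (SD, n = 5 pairs, limma adjusted p = 0.721). Its SD ranked 1 among 3612 probes with values in all pairs. Acly, which makes the cytosolic acetyl-CoA used by both the sterol and the fatty acid routes, read 2.29, 0.03, -1.78, 0.09 and 1.96, a mean of 0.52 ± 1.65 (SD, n = 5 pairs, adjusted p = 0.716), and ranked 9. Thrsp, a lipogenic protein of fat and liver, read 2.40, -0.61, -1.53, 0.67 and 1.49, with an SD of 1.58 that ranked 14.

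The partner arrays of Fasn lay on the same side of 0 in every pair. Fasn read 2.79, -0.51, -2.27, 0.34 and 2.17 with double-null RNA in channel 1, and 3.93, -0.27, -1.98, 0.17 and 2.29 with the dyes exchanged. The desaturase genes Scd1 and Scd2, which make monounsaturated fatty acids, averaged 0.72 ± 1.19 (limma adjusted p = 0.554) and 0.36 ± 0.69 (adjusted p = 0.611), each SD with n = 5 pairs. Acss2, which makes acetyl-CoA from acetate, averaged 0.57 ± 1.00 (SD, n = 4 pairs, adjusted p = 0.592). Without pair 1 the means were 0.28 for Scd1, 0.17 for Scd2, 0.16 for Acss2, 0.0751 for Acly, 0.0046 for Thrsp and -0.0095 for Fasn. Fads1, of polyunsaturated fatty acid synthesis, had -0.12 ± 0.22 (SD, n = 5 pairs, adjusted p = 0.713).

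Pair 1 was the highest and pair 3 the lowest for 5 of 6 fatty acid synthesis genes with 5 pair values, an order that 6.95% of 3612 probes had. The order was noticed in these values and then counted, so the count is a description. Only pairs 1 and 5 held female mice, so sex cannot be told apart from other differences between the pairs. The partner arrays of pair 3 correlated across all probes at 0.04. In the orientation with double-null RNA in channel 1 it held for 6 of 8 probes of the list, against 7.17% of all probes, and with the dyes exchanged for 4 of 6, against 6.94%. Of the other sterol synthesis genes, Pmvk and Sc5d had the same order, 2 of 4, and so did Srebf1. Idi1 did not, since its pair 4 lay below pair 3.

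Adipocyte markers moved with the fatty acid genes in part of the pairs. White adipocyte markers had medians of 1.75, -0.28, -0.41, 1.01 and -0.41 in pairs 1 to 5 over 12 genes, and brown adipocyte markers 2.30, 0.18, -0.58, 1.44 and -0.23 over 6. Both were high in pairs 1 and 4 and below 0 in pair 5, where the fatty acid median was 0.90 and Fasn 2.23. None of the 12 or the 6 passed. Per the labels, connective tissue was removed from the vessels before RNA was taken. The part of adipocyte markers in the fatty acid and sterol values was not tested. The pair order of the fatty acid genes was found in 5 of 11 white and 3 of 5 brown adipocyte genes and in 0 of 15 macrophage genes.

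Markers of other cells gave the following medians of means. Smooth muscle markers had a median of -0.14 over 7 genes and endothelial markers -0.05 over 7, and skeletal and cardiac muscle markers had -0.11 over 4, with none past the threshold. The pair medians of the skeletal and cardiac muscle markers were uneven, at -0.99, 1.85, -0.15, -0.10 and -0.33 in pairs 1 to 5. Red cell markers had 0.82 over 2 genes, neither past it. Hepatocyte markers had 0.48 over 3 genes, 2 with means above 0 and 1 below. Of these 3, 1 rose, where 29 of 4866 probes rose. It was Serpina1a, a plasma protease inhibitor with close paralogs that share its sequence (0.99 ± 0.30, SD, n = 5 pairs, limma adjusted p = 0.0252). That call was lost when any single pair was left out, with adjusted p between 0.0528 and 0.120.

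**Figure D3:**
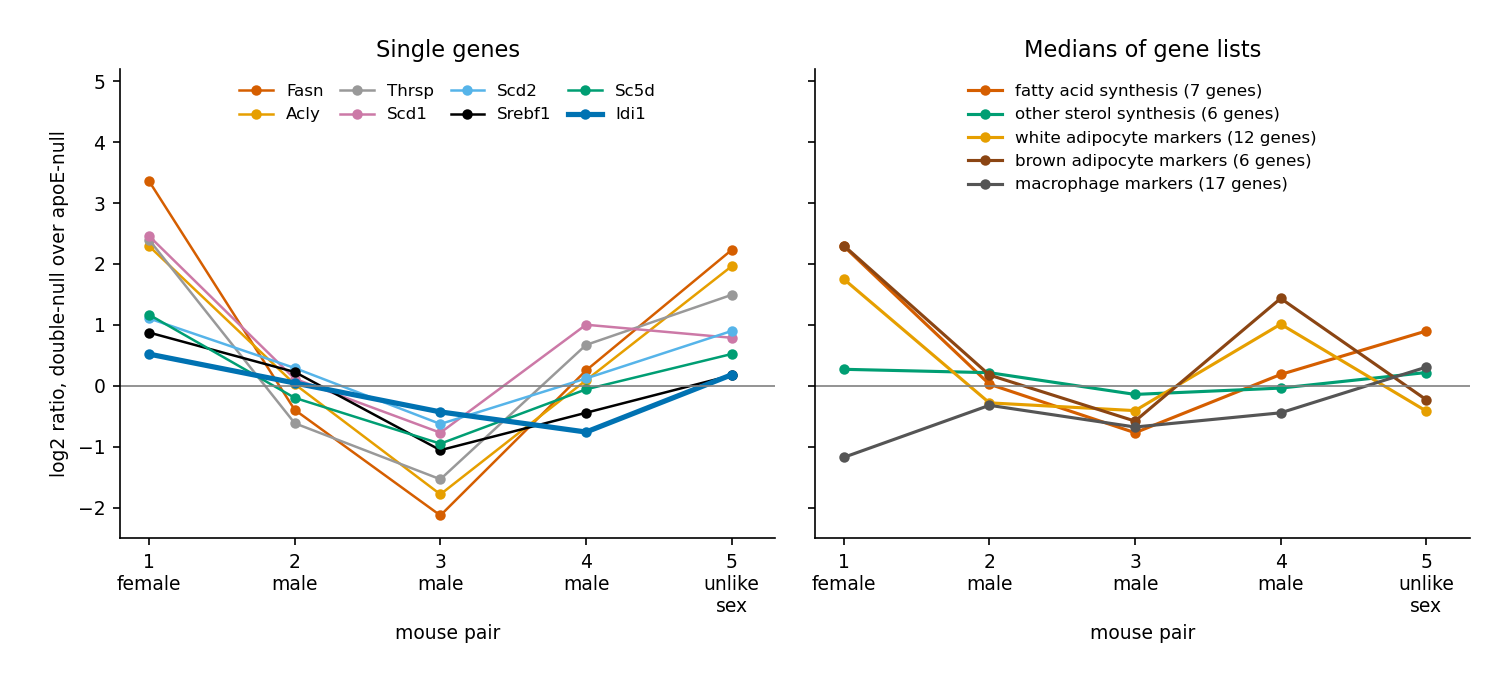
The log2 ratio of double-null over apoE-null signal in each mouse pair along the x axis, on the left for single genes with Idi1 as the thick line and on the right for the medians of gene lists, with the number of tested genes in brackets. Fasn runs between 3.36 in pair 1 and -2.13 in pair 3, Idi1 between 0.52 in pair 1 and -0.76 in pair 4, and the adipocyte medians are below 0 in pair 5, where the fatty acid median is 0.90.

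**Figure D4:**
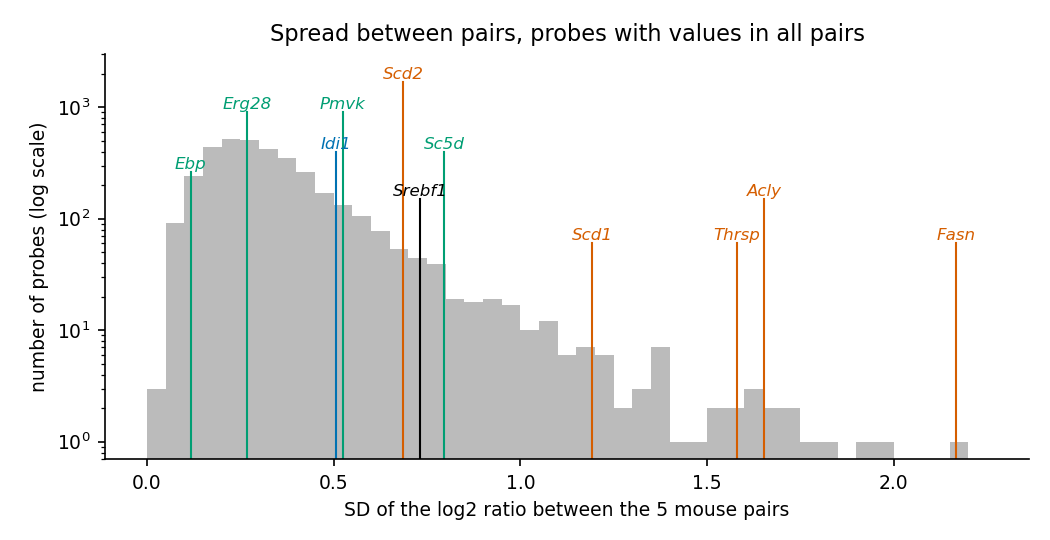
Histogram of the SD of the log2 ratio between the 5 mouse pairs (x axis) over the 3612 probes with values in all pairs (y axis, number of probes on a log scale), with vertical lines for named genes, whose heights carry no value. Ebp at 0.12 ranks 3445 and Erg28 at 0.27 ranks 2139, Idi1 at 0.51 ranks 577, and Fasn at 2.17 ranks 1, counted from the widest spread.

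The genes whose pair values lay nearest to the median profile of Idi1 and Dhcr7, by root mean square difference over 5 pairs among 3189 genes, were Nip7 at 0.0570, Mrpl27 at 0.0785, Ostc at 0.0907, Atg10 at 0.0928, Mthfs at 0.0948 and Lysmd1 at 0.106. Nip7 read 0.04, 0.11, -0.19, -0.50 and -0.09 in pairs 1 to 5. In pair 2 the profile is that of Idi1 alone. No gene of the sterol or fatty acid lists was among these 6.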

How the data were processed

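Per the labels' protocols, aortic arch RNA was purified with TRIzol and RNeasy, amplified with T7 polymerase, labelled chemically and hybridised as 1 genotype per channel, and the slides were scanned and quantified with GenePix instruments and analysed in GeneSpring. The deposited values are log2 ratios, apoE-null over double-null by the array titles. How they were normalized and why cells are blank is not given in the sources consulted, and the lowest deposited value, -6.64, is reached on 5 arrays.

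Signs were turned to double-null over apoE-null, and the partner arrays of a pair, which hold the same RNA, were averaged to 1 replicate where both had a value. The partner arrays correlated across probes at 0.56, 0.31, 0.04, 0.19 and 0.46 in pairs 1 to 5. The replicate number is the mouse pair, so the design is paired by construction. In pair 1 the mouse numbers of the genotypes are swapped between its arrays, and the genotype labels were followed. Probes with at least 3 pair values were tested against 0 in R 4.3.3 by limma 3.58.1 (two-sided moderated test, lmFit then eBayes), adjusted by Benjamini-Hochberg over 4866 probes, at a threshold of 0.05. The dye effect, the difference between orientations divided by 2, was tested likewise. By the labels the mice are separate animals, and the p-values reflect how much the pairs varied. Ratios without intensities give no depth, and the number of arrays limits the precision. The fit was tested on simulated data.

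Symbols came from the platform annotation, with 12143 probes of 1 symbol, 49 of several and 1680 of none. Of the single symbols, 12009 were matched by Entrez identifier to RefSeq for assembly GRCm38.p6, and updated where they differed. RefSeq also gave the promoters. No sequence is shown for members that the table does not hold. The members and gene lists were chosen with earlier results of these data known. Named genes were the members, the genes of the sterol list, up to 4 of the smallest p in each other pathway list, any gene of those lists past the threshold, Myd88, Apoe and the 6 nearest profiles. Marker lists are given as counts and medians. Only Cd5l and Serpina1a, which passed, and the smooth muscle genes Acta2, Myh11, Tagln and Des, given for their coverage, are named. Fasn, Acly, Thrsp and Nr1h3, the genes without values and the pair order were named after their values were seen. Alternatives were leaving out each pair, array centring and scaling, complete probes, genes in place of probes, single orientations, single arrays, male pairs, a robust prior, a looser threshold and an array-level fit with the pair as a replicate block (statmod 1.5.0). Counting the pair order within each orientation was added after the data were seen.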

Additional observations from a re-analysis of the deposited data

Results flagged for a closer look

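In 46 sets of 4 or 5 pair values, 1 for each probe of a named gene, the highest or lowest pair stood apart from the rest by Dixon's criterion in 2, and chance alone marks about 1 in 20 such sets. Erg28 had its highest ratio in pair 2, at 0.69, where the next pair was 0.21 and the lowest 0.03. Fnta had its lowest ratio in pair 2, at -0.29, where the next pair was 0.16 and the highest 0.35.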

How the results depend on the processing

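Idi1 and Dhcr7 passed neither the genotype nor the dye test in any setting that was run. The Idi1 mean lay between -0.38 and 0.08 over 16 settings (limma adjusted p between 0.555 and 0.997) and the Dhcr7 mean between -0.42 and -0.06 over 14 (adjusted p between 0.345 and 0.855). The pair is the replicate here, and the array-level fit with the mouse pair as a replicate block (within-pair correlation 0.477) gave -0.09 for Idi1, -0.23 for Dhcr7 and -0.16 for their median. That median was -0.06 with double-null RNA in channel 1 alone, -0.27 with the dyes exchanged, -0.38 in the male pairs, where it is Idi1 alone, and -0.23 to -0.10 without 1 pair. The number of probes with a genotype difference, 38 as reported, was 0 to 25 when 1 pair was left out, 59 and 119 in the single orientations, 74 at an adjusted p under 0.10 and 73 with the replicate block. Means of genes that had not passed changed sign. Without 1 pair the range was -0.24 to 0.0807 for Idi1, -0.0167 to 0.21 for Msmo1, -0.17 to 0.36 for Sc5d, -0.27 to 0.21 for Srebf1, -0.0626 to 0.14 for Ufd1, -0.0808 to 0.13 for Rabggtb, -0.0095 to 1.36 for Fasn and -0.12 to 0.0342 for Nr1h3. In the orientation with double-null RNA in channel 1, Sc5d read -0.0578, Srebf1 0.27, Ufd1 -0.0903 and Nr1h3 0.30. With the dyes exchanged, Msmo1 read -0.29, Mvd -0.13, Npc2 0.0017 and Rabggtb -0.0494. In the male pairs alone, Sc5d read -0.40, Ufd1 -0.0046, Scd2 -0.0706, Fasn -0.76, Acly -0.55 and Thrsp -0.49. With the replicate block Msmo1 read -0.0159 and Mvd -0.0713, and Mvd also read -0.0076 after scaling and -0.0641 with single arrays allowed. The cause of these changes was not tested. With at most 5 pairs and no value for 5 of the 8 members, shifts within the intervals given for Idi1 and Dhcr7 could not be detected, and nothing is known here of Hmgcs1, Fdps, Insig1, Fdft1 or Cyp51.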
